A study of Mus musculus with 8 samples.

Results

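Transcripts of 10 genes that make or break down cyclic nucleotides in heart muscle were followed in mouse atria: the phosphodiesterase genes Pde1c, Pde2a, Pde3a, Pde3b, Pde4a, Pde4b, Pde4d and Pde5a, and the adenylyl cyclase genes Adcy5 and Adcy6. They were listed by symbol for their known roles in cardiac tissue, with earlier results of these data known. They are 10 of 54532 genes in the table. Bulk RNA sequencing covered 8 libraries of atria, right and left, from mice homozygous for a floxed Chd4 allele. The mice were injected on postnatal day 2 with an AAV9 vector whose Nppa promoter drove either Cre recombinase, giving the 4 KO libraries, or EGFP, giving the 4 control libraries. The Nppa promoter is active in atrial muscle. Every mouse carried the floxed allele, Cre was present only in KO and EGFP only in control, so an effect of either protein and the loss of the remodeller CHD4 cannot be told apart. Neither the age at collection nor how many mice make up a library is stated in the labels.

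Cyclic AMP carries the signal of adrenergic and other receptors into the heart muscle cell. Stimulatory G proteins switch on adenylyl cyclases, inhibitory G proteins switch them off, and the cyclic AMP formed acts through protein kinase A, exchange factors and pacemaker channels on rate, force and relaxation. Cyclic GMP comes from soluble guanylyl cyclases, which sense nitric oxide, and from natriuretic peptide receptors. Phosphodiesterases hydrolyse both messengers and keep them local: PDE1 is activated by calcium and calmodulin, PDE2 by cyclic GMP, PDE3 is inhibited by cyclic GMP, PDE4 cleaves cyclic AMP, and PDE5 cleaves cyclic GMP.

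Libraries held 34002292 to 40588007 counts. Chd4 itself was at 169 to 199.6 CPM (read counts scaled to library size, with TMM factors) in KO and at 278 to 308 CPM in control, a log2 fold change of -0.66. By edgeR, 5032 of 18033 tested genes were called at an adjusted p under 0.05 (27.9%), 2677 higher in KO (14.8%) and 2355 lower (13.1%). With total counts alone as the scale, 70.1% of called genes were higher, against 53.2% on the TMM scale. The tissue is mixed, and its cardiomyocyte markers were lower in KO: 9 of 10 were called lower and 0 higher. Their median log2 fold change was -0.49, and their sum was 58681 to 73414 CPM in KO and 90043 to 98745 CPM in control. None of these 10 markers was near 0. Of 10 endothelial markers 6 were higher and 1 lower (summed 2457 to 2772 CPM in KO and 2056 to 2286 CPM in control), of 10 fibroblast markers 6 were higher (11333 to 13701 and 10766 to 11317 CPM), of 10 macrophage markers 6 (479 to 665 and 389 to 501 CPM) and of 10 epicardial markers 7 (819 to 994 and 604 to 797 CPM). Of 8 tested neuron and Schwann cell markers 1 was lower (Dbh, of noradrenaline synthesis) and 0 higher (22.6 to 27.2 and 31.0 to 47.0 CPM), with Th near 0 in both groups. Dbh, with means of 1.20 CPM in KO and 14.1 CPM in control, made up most of the difference in that sum. The median log2 fold change of the tested markers of this list was 0.16. The part of these cell types in the results below was not tested. In bulk tissue, fewer cells of a type and less RNA per cell cannot be told apart.

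More of the 10 genes were lower than higher in KO atria. All 10 were abundant enough to be tested. By edgeR's adjusted p, 5 were called lower (Pde2a, Pde3a, Pde4a, Pde4d and Adcy5), 1 was called higher (Pde5a), and 4 were not called (Pde1c, Pde3b, Pde4b and Adcy6). The 5 lower genes stand beside 13.1% of all tested genes called lower, and the 1 higher gene beside 14.8% called higher. The median log2 fold change of the 10 genes was -0.42, and that of all tested genes 0.01. The 10 genes were chosen with earlier results of these data known, so they are not an independent sample of genes. The KO libraries lay wholly below the control libraries for 6 genes (13.9% of all tested genes did so) and wholly above for 1 (15.3% did so); the groups were thus apart for 7 of the 10 genes, and for 29.2% of all tested genes. The summed level of the 8 phosphodiesterases per kilobase of exon was 29.8 to 36.6 CPM per kilobase in KO and 44.9 to 48.3 CPM per kilobase in control, and that of the 2 cyclases 55.8 to 67.0 and 68.4 to 84.3 CPM per kilobase.

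**Figure D1:**
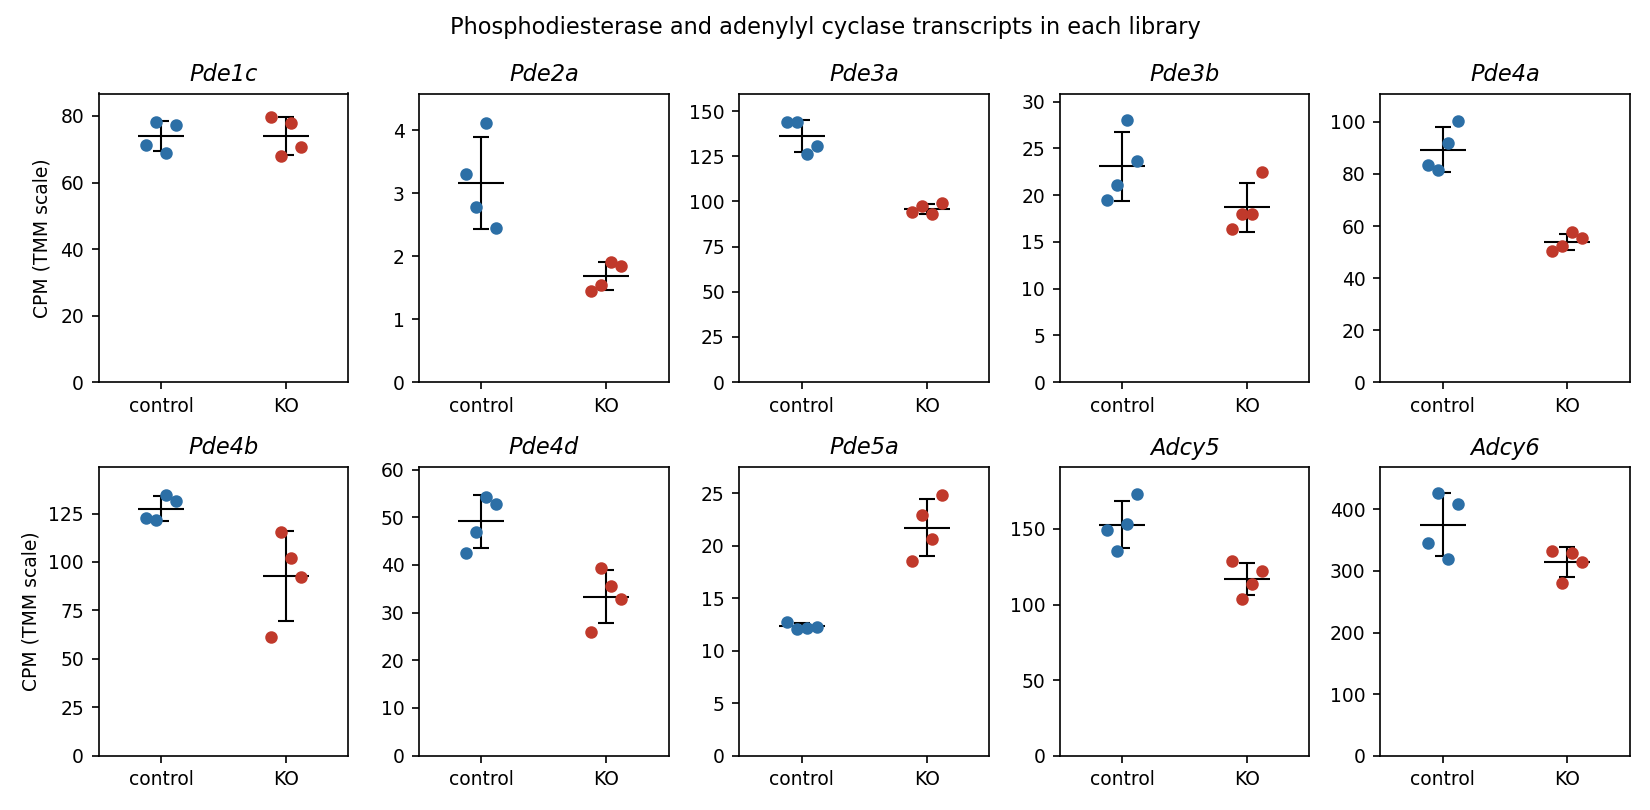
Level of each of the 10 genes in every library, in CPM on the TMM scale, on axes that start at 0; points are libraries 1 to 4 of a group from left to right, the wide line is the mean and the bar the SD. Pde5a is the only panel with all 4 KO points above the controls (18.5 to 24.8 against 12.1 to 12.7 CPM), while in 6 panels, among them Pde3a and Pde4a, all KO points lie below.

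Levels of different genes were compared per kilobase of their joined exons. Control atria held most Adcy6 (55.3 ± 7.49 CPM per kilobase, SD, n = 4), followed by Adcy5 (21.3 ± 2.17). Among the phosphodiesterases Pde4b (12.1 ± 0.608), Pde4a (11.7 ± 1.12) and Pde3a (10.7 ± 0.708) came first, and each of these 3 overlapped its neighbour in the order over the control libraries. Pde4d (4.09 ± 0.459) and Pde1c (3.68 ± 0.226) overlapped as well. Pde3b (2.53 ± 0.407), Pde5a (1.25 ± 0.0297) and Pde2a (0.513 ± 0.118) were lowest and did not overlap one another. In KO, Pde3a (7.54 ± 0.218) stood before Pde4a (7.05 ± 0.413), Pde1c (3.69 ± 0.28) before Pde4d (2.78 ± 0.47), and Pde5a (2.21 ± 0.279) before Pde3b (2.05 ± 0.288). Over the KO libraries Pde4b, Pde3a and Pde4a overlapped, as did Pde5a and Pde3b, while Pde1c (3.38 to 3.97) and Pde4d (2.16 to 3.27) did not. The joined exons of all isoforms make a gene longer than its main transcript, most of all for Pde1c with 20067 bases, so the level per kilobase of such a gene is understated.

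**Figure D2:**
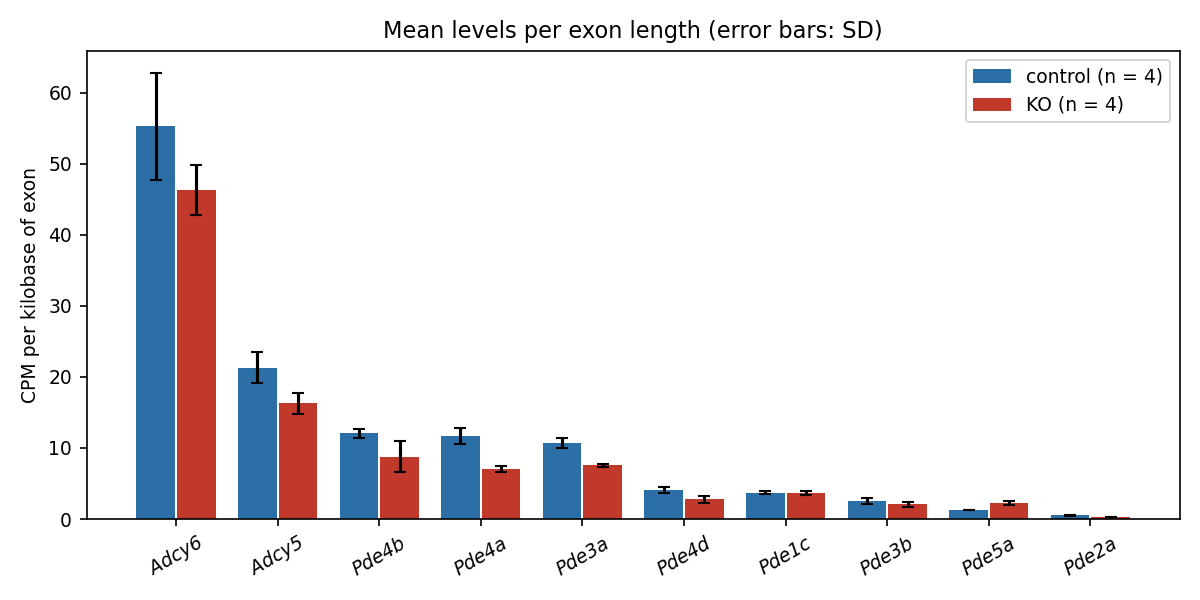
Mean level of each gene in CPM per kilobase of joined exons, ordered by the control mean; blue bars are control and red bars KO, error bars are the SD over 4 libraries. The cyclase Adcy6 (55.3 in control and 46.4 in KO) exceeds every phosphodiesterase, and Pde5a is the only bar pair in which KO is clearly the taller (2.21 against 1.25).

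The cyclase genes come first in the pathway. ADCY5 and ADCY6 are the closely related cyclases of heart muscle, and both are inhibited by calcium and by inhibitory G proteins. Adcy5 (ENSMUSG00000022840, chromosome 16, 35154877 to 35305738, plus strand, GRCm38) was at 129, 104, 114 and 122 CPM in KO 1 to 4 and at 149.5, 136, 153 and 173 CPM in control 1 to 4. The 2 groups did not overlap. Adcy5 fell 1.31-fold, with means of 153 ± 15.6 CPM in control and 117 ± 10.8 CPM in KO (-0.39 on the log2 scale, SE 0.08, edgeR adjusted p = 0.00518). Adcy6 (ENSMUSG00000022994, chromosome 15, 98589973 to 98610076, minus strand) was at 333, 281, 329.8 and 314 CPM in KO and at 345, 427, 319 and 408 CPM in control. Its groups overlapped, since control 3 lay within the range of the KO libraries, while control 1 lay just above that range. The log2 fold change of Adcy6 was -0.25 with a 95% interval of -0.46 to -0.05 (edgeR adjusted p = 0.0656), and without control 3 it was -0.32 and called (adjusted p = 0.019). Within a library the ratio of Adcy6 to Adcy5 per kilobase was 2.73 to 3.08 in KO and 2.21 to 3.33 in control, so it overlapped. An antisense gene shares 8.92% of the Adcy6 exon bases, and the counting was not stated to use strand.

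The annotated start of Adcy5 is single in the RefSeq promoter table, and its window is shown because the gene was called lower and has 1 window there. It covers 250 bases before to 50 after the start, as do all windows here (RefSeq, GRCm38.p6). Capitals mark any match, on either strand, to AGGTGT (a T-box element core, of interest because TBX5 is in the series title), TGACGTCA (the cyclic AMP response element) or TGACG (its core, contained in the full element). No letters of the Adcy5 window at chr16:35154614-35154913, plus strand matched, and 79% of its bases were G or C.

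Adcy5: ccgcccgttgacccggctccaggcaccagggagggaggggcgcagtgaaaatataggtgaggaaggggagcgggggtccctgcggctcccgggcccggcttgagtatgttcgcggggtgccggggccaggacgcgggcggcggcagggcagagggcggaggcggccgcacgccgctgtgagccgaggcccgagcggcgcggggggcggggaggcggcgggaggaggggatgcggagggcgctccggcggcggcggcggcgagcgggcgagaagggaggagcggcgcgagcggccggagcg

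PDE4 enzymes are specific for cyclic AMP and sit in complexes with receptors, the ryanodine receptor and calcium pump regulators. Pde4a (ENSMUSG00000032177, chromosome 9, 21165714 to 21213248, plus strand) was at 50.5, 52.3, 57.6 and 55.3 CPM in KO and at 83.5, 81.6, 92.1 and 100.2 CPM in control. The highest KO library was below the lowest control by a wide gap. Pde4a fell 1.66-fold, with means of 89.3 ± 8.57 CPM in control and 53.9 ± 3.16 CPM in KO (-0.73 on the log2 scale, SE 0.07, edgeR adjusted p = 2.65e-05), the smallest adjusted p of the 10 genes. Pde4d (ENSMUSG00000021699, chromosome 13, 108449948 to 109953461, plus strand) was at 25.9, 39.3, 35.5 and 32.8 CPM in KO and at 42.4, 46.9, 54.3 and 52.9 CPM in control. KO 1 was lowest, and KO 2 came close to control 1. Pde4d fell 1.47-fold (log2 fold change -0.56, SE 0.12, edgeR adjusted p = 0.00684), a call lost against controls 1 and 2 alone (-0.44, adjusted p = 0.0617).

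Pde4b (ENSMUSG00000028525, chromosome 4, 102087543 to 102607259, plus strand) was at 61.1, 115, 102 and 92.3 CPM in KO and at 123, 121, 134 and 131 CPM in control. KO 1 stood far below the other KO libraries, and KO 2 reached nearly the level of the controls. The groups did not overlap, yet Pde4b was not called (log2 fold change -0.46, 95% interval -0.83 to -0.08, edgeR adjusted p = 0.0708). Without KO 1 its log2 fold change was smaller, -0.31, and called (adjusted p = 0.0108), the other 3 KO libraries lying between 92.3 and 115 CPM. It was also called without KO 2 (-0.58, adjusted p = 0.025), with the replicate number as a block (-0.49, 0.0459) and by DESeq2 (-0.47, 0.00977). Of the 3 PDE4 transcripts summed per kilobase, Pde4d made up 14.6% to 15.6% in KO and 13.6% to 15.5% in control. Pde4b made up 39.8% in KO 1, 46.7% to 52% in the other KO libraries and 41.6% to 44.5% in control.

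Several PDE4 starts are annotated, and gene counts do not tell which were used. The table held 3 windows for Pde4a, 4 for Pde4b and 1 for Pde4d. The windows below are those of Pde4a and Pde4b with a match to TGACG, and the single one of Pde4d, shown because the KO libraries of all 3 genes lay wholly below the controls, with Pde4a and Pde4d called lower and Pde4b not called. The TGACG match begins 50 bases before the start in the Pde4a window (chr9:21183851-21184150, plus strand) and 34 bases before it in the Pde4b window (chr4:102421305-102421604, plus strand), both on the minus strand of the window. The Pde4d window (chr13:108653927-108654226, plus strand) had no match. Over the 7 genes with an entry, 3 of 18 windows held TGACG, 2 held AGGTGT (1 of Pde1c and 1 of Pde4b) and 0 held TGACGTCA. Of 32851 promoter windows of the same length, 20.8% held TGACG, 13.7% AGGTGT and 1.79% TGACGTCA. Pde3a, Pde3b and Adcy6 were not matched.

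Pde4a: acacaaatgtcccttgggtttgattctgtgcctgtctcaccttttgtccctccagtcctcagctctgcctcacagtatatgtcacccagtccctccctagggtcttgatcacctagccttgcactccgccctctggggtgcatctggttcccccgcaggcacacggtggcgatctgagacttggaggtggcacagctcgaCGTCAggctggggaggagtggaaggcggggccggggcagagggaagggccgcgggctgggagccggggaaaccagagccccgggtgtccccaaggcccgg
Pde4b: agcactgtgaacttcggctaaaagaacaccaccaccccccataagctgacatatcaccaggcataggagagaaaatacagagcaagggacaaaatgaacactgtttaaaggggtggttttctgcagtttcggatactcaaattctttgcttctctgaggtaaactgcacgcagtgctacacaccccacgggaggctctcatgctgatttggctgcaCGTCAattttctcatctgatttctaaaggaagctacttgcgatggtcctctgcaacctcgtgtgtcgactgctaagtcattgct
Pde4d: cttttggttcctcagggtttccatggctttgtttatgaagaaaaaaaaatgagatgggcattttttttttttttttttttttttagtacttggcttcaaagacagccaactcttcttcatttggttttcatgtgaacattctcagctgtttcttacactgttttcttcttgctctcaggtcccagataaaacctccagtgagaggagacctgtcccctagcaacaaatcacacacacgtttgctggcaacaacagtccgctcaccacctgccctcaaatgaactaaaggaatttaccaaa

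PDE3 enzymes cleave cyclic AMP and are inhibited by cyclic GMP; PDE3A is the main form of heart muscle and the target of milrinone, and PDE3B is best known from fat cells, where it acts downstream of insulin. Pde3a (ENSMUSG00000041741, chromosome 6, 141249269 to 141507448, plus strand) was at 94.2, 97.6, 93.1 and 99.0 CPM in KO and at 144, 144, 127 and 131 CPM in control. The KO libraries were close together and all below the controls. Pde3a fell 1.42-fold, with means of 136 ± 9.02 CPM in control and 96.0 ± 2.77 CPM in KO (-0.51 on the log2 scale, SE 0.06, edgeR adjusted p = 7.7e-05). An antisense gene shares 5.82% of its exon bases, and the counting was not stated to use strand.

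Pde3b (ENSMUSG00000030671, chromosome 7, 114415281 to 114539251, plus strand) was at 16.4, 17.99, 17.95 and 22.5 CPM in KO and at 19.5, 21.1, 28.0 and 23.7 CPM in control. KO 4 lay among the controls, so the groups overlapped. Its log2 fold change was -0.30 with a 95% interval of -0.58 to -0.03 (edgeR adjusted p = 0.092). Without KO 4 it was -0.40 and called (adjusted p = 0.0332). KO 4 also held Adipoq, the adiponectin gene of fat cells, at 15.8 CPM, against 0.0545 to 0.766 CPM in the other 7 libraries. The summed level of 10 adipocyte markers was 338 CPM in KO 4, 144 to 198 CPM in the other KO libraries and 162 to 237 CPM in control, and none of the 7 tested was called. Of these markers, Ucp1 was near 0 in both groups (means of 0.108 and 0.0382 CPM), and the part of fat tissue in the Pde3b level was not tested. Against controls 1 and 2 alone the Pde3b difference was -0.14 (adjusted p = 0.481), and against controls 3 and 4 alone it was -0.49 (adjusted p = 0.0202). Those control pairs also differ in library name prefix and in the Y-linked gene Ddx3y (0.858 and 0.706 CPM in controls 1 and 2, 105 and 106 CPM in controls 3 and 4), which cannot be told apart. Ddx3y was at 0.72 CPM in KO 2 and 108 to 124 CPM in KO 1, 3 and 4, so the groups were unbalanced for it, 3 high libraries of 4 in KO and 2 of 4 in control. With Ddx3y as a covariate Pde3b was called (-0.36, adjusted p = 0.0416).

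PDE1C cleaves both messengers when calcium binds calmodulin. Pde1c (ENSMUSG00000004347, chromosome 6, 56069804 to 56569103, minus strand) was at 79.7, 67.8, 77.7 and 70.8 CPM in KO and at 71.3, 78.1, 68.8 and 77.3 CPM in control. The groups overlapped throughout. Means were 74.0 ± 5.63 and 73.9 ± 4.54 CPM, and the log2 fold change was 0.00 (edgeR adjusted p = 0.982), with a 95% interval of -0.15 to 0.15 that spans a change of -9.6% to 11.05%. Calm2 and Calm3, which encode calmodulin, were not called either, with log2 fold changes of -0.08 and -0.07 that turned to 0.00 and 0.01 under total count scaling. Relative to Pde3a in the same library and per kilobase, Pde1c was at 0.441 to 0.537 in KO and 0.315 to 0.375 in control, with no overlap. As Pde1c itself did not differ, this ratio restates the lower Pde3a level in KO.

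PDE2A is switched on by cyclic GMP and cleaves both messengers. Pde2a (ENSMUSG00000110195, chromosome 7, 101421691 to 101512827, plus strand) was at 1.45, 1.54, 1.91 and 1.84 CPM in KO and at 3.30, 2.77, 4.11 and 2.44 CPM in control, from 49 to 161 counts per library. All KO libraries were below all controls. Pde2a fell 1.87-fold (log2 fold change -0.91, SE 0.20, edgeR adjusted p = 0.00565), the most of the 5 lower genes. In GENCODE M21 64.3% of its exon bases are shared, on the same strand, with Gm45837, a protein-coding gene model. Gm45837 had 3, 1, 1 and 5 counts in KO and 2, 5, 0 and 0 in control. The labels do not say how reads in shared exons were counted, so the low Pde2a level may cover only part of its exons and its place in the order of levels is uncertain.

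Pde5a was the exception among the called genes. PDE5A cleaves cyclic GMP and is the target of sildenafil; it is known mainly from smooth muscle and is low in healthy heart muscle. Pde5a (ENSMUSG00000053965, chromosome 3, 122728947 to 122859374, plus strand) was at 18.5, 22.9, 20.7 and 24.8 CPM in KO and at 12.7, 12.1, 12.1 and 12.3 CPM in control. The controls were nearly equal, and the lowest KO library lay well above all of them. Pde5a rose 1.76-fold, with means of 12.3 ± 0.292 CPM in control and 21.7 ± 2.74 CPM in KO (0.82 on the log2 scale, SE 0.09, edgeR adjusted p = 6.39e-05). Of 10 smooth muscle and pericyte markers 4 were higher, 2 lower and 4 not called, beside 27.9% of all tested genes called in either direction. Their summed level was 507 to 666 CPM in KO and 557 to 855 CPM in control. None of the 10 was at 0. Tagln, called higher, was lowest in level, with means of 2.73 CPM in KO against 0.669 in control. Genes on the other strand overlap 67.9% of its exon bases. Cnn1, also called higher, had means of 28.3 and 7.81 CPM, and Acta2, called lower, had means of 76.3 and 203 CPM. Pdgfrb and Abcc9 were called higher too, and Rgs5 lower. The part of smooth muscle cells and pericytes in the Pde5a level was not tested. Relative to Pde3a per kilobase, which was itself lower in KO, Pde5a was at 0.255 to 0.325 in KO and 0.109 to 0.124 in control. The Pde5a window (chr3:122728908-122729207, plus strand), shown because it is the only start listed for the 1 gene that rose, had no match to the 3 motifs.

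Pde5a: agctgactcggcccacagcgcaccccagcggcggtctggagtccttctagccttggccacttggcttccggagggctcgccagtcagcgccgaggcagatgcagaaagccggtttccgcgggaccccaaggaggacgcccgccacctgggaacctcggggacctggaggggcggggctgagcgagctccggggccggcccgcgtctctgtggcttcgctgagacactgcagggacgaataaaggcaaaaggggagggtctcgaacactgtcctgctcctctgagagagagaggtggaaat

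The levels were also set against the cardiomyocyte markers, since these were lower in KO as well. Per 10000 CPM of the summed marker list, Pde5a ranged from 2.52 to 4.00 CPM in KO against 1.25 to 1.35 in control, and Pde1c at 10.9 to 12.7 and 7.51 to 8.67 CPM, both with KO above control. The other 8 genes overlapped on this scale, and none lay wholly below control. Pde3a ranged from 12.8 to 16.6 CPM in KO against 13.2 to 16.0 in control, and Pde4a at 6.88 to 9.38 and 8.87 to 10.15 CPM. Adcy5 was at 17.5 to 19.6 and 15.1 to 17.6 CPM, and Adcy6 at 45.3 to 53.7 and 34.9 to 47.4 CPM. The 10 markers include genes of atrial identity such as Myl7 and Nppa that were themselves called lower, so this scale moves with the comparison, and it was added after the data had been seen. Its largest parts were Myh6 (means of 26991 CPM in KO and 40488 CPM in control) and Nppa (10574 and 17155 CPM). Their log2 fold changes were -0.59 and -0.70, while the 10 markers ran from -0.17 for Actc1 to -1.21 for Myl7. Overlap on this scale need not hold against a single marker, which was not tested.

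**Figure D3:**
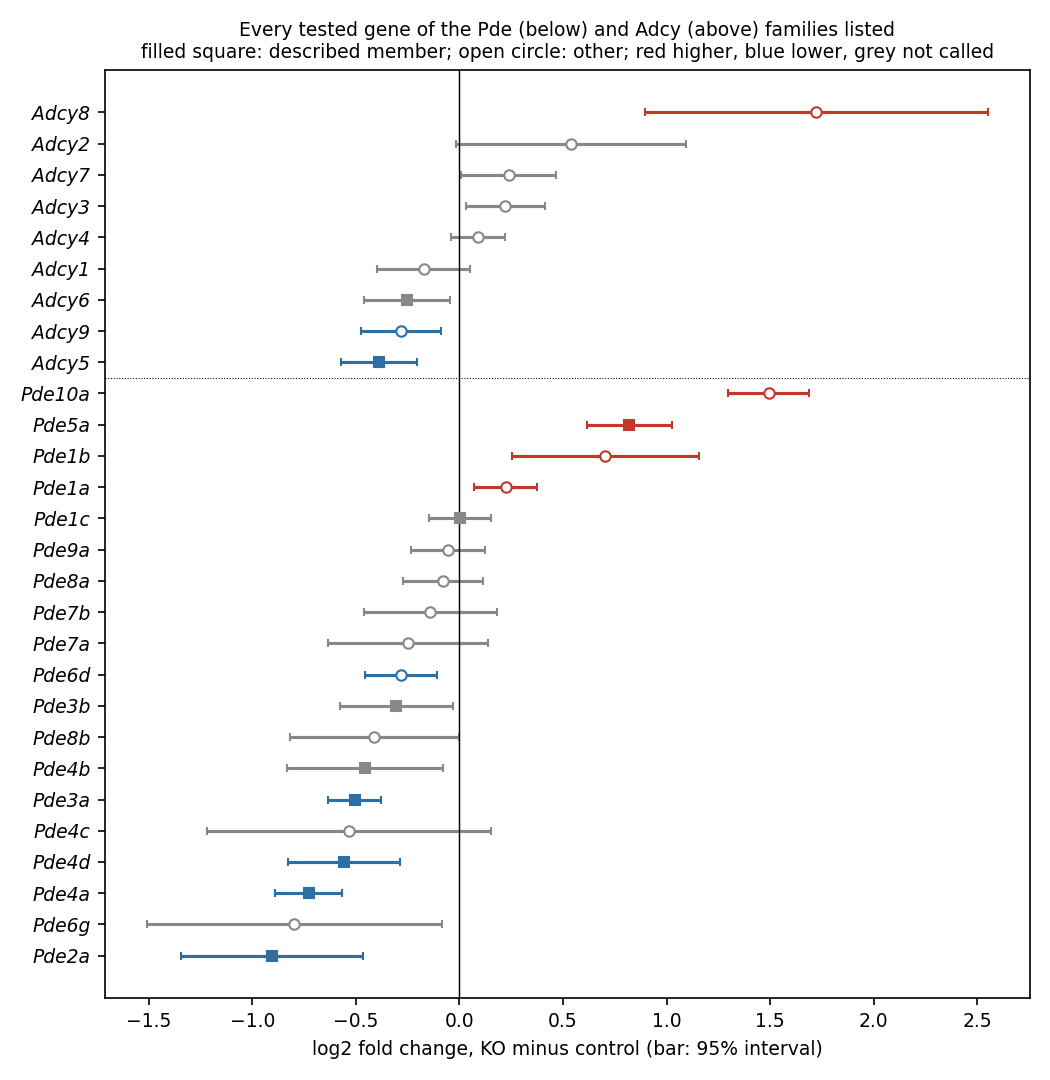
Log2 fold change of every tested gene of both families, KO minus control, with its 95% interval from the edgeR fit; filled squares are the 10 genes described, open circles the other family members, red is called higher, blue called lower and grey not called. Pde10a (1.49) and Pde5a (0.82) are the highest called phosphodiesterases, and Pde2a (-0.91) and Pde4a (-0.73) the lowest.

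Among the other genes of both families the changes were mixed. Of 16 further genes named as phosphodiesterases, 11 were tested, 3 were called higher, 1 lower and 7 not called, with a median log2 fold change of -0.14 (27.9% of all tested genes were called). Pde10a, which cleaves both messengers and is best known from the striatum, rose 2.81-fold from 6.98 ± 0.666 to 19.7 ± 0.746 CPM (edgeR adjusted p = 5.3e-07). The other calcium-activated genes Pde1a and Pde1b were called higher (log2 fold changes 0.22 and 0.70, edgeR adjusted p = 0.0319 and 0.0247). Leaving out any 1 of 6 libraries ended each call (adjusted p = 0.0554 to 0.0909 and 0.0527 to 0.0764). These were KO 2, KO 3, KO 4, control 1 and control 3 for both, with control 4 for Pde1a and control 2 for Pde1b. Pde6d, which encodes a carrier of prenylated proteins despite its name, was called lower (-0.28, adjusted p = 0.0197; 0.0514 without control 4). Of 8 further cyclases 7 were tested, 1 was called higher, 1 lower and 5 not called (median 0.22). Adcy8, a calcium-stimulated cyclase, averaged 1.19 ± 0.247 CPM in KO against 0.359 ± 0.173 in control and was called higher (log2 fold change 1.72, adjusted p = 0.00534). Adcy9 was called lower (-0.28, adjusted p = 0.0317) but not when KO 1, 2, 3 or 4 or control 1 or 4 was left out (0.056 to 0.0974). Adcy3 and Adcy7 were at 0.22 and 0.24 and not called (adjusted p = 0.0819 and 0.118), but Adcy3 was called without KO 1 (0.27, adjusted p = 0.0367) and Adcy7 without control 3 (0.32, 0.0317); 22.1% of the Adcy3 exon bases overlap Cenpo on the other strand.

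On the cyclic GMP side, 3 of 6 tested guanylyl cyclase genes were called higher, 1 lower and 2 not called (median 0.31), beside 14.8% of all tested genes called higher and 13.1% lower. The natriuretic peptide receptors Npr1 and Npr2 rose 1.38-fold and 1.34-fold (edgeR adjusted p = 0.000583 and 0.000935), Npr1 from 60.2 ± 4.96 to 83.3 ± 6.10 CPM. Genes on the other strand overlap 11.7% of the Npr1 exon bases and 5.7% of the Npr2 exon bases. Gucy1a1, a subunit of the nitric oxide sensor, fell 1.64-fold from 216 ± 12.7 to 131 ± 14.4 CPM (adjusted p = 4.83e-05). Its partner Gucy1b1 was called higher by 0.19 on the log2 scale (adjusted p = 0.026) but not when KO 2, 3 or 4 or control 1, 2 or 4 was left out (0.0513 to 0.0869).

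Upstream of the cyclases, 1 of 7 G alpha genes was called higher, 1 lower and 5 not called (median -0.16), a share near the 27.9% of all tested genes called in either direction. Gnao1, an inhibitory type, fell 1.83-fold from 266 ± 29.6 to 145 ± 11.7 CPM (edgeR adjusted p = 2.18e-05), and the inhibitory Gnai2 was called higher (0.25, adjusted p = 0.0113; 0.183 against controls 3 and 4 alone and 0.0511 without KO 2 and control 2). Gnai1 and Gnai3 were at -0.16 and 0.10 and not called (adjusted p = 0.242 and 0.221). Of 19 tested receptors and regulators 3 were called higher, 3 lower and 13 not called (median -0.12), also near 27.9%. Glp1r, the receptor for glucagon-like peptide, rose 1.89-fold to 7.63 ± 0.752 CPM (adjusted p = 0.00107). Rgs6, which speeds the switching off of inhibitory G proteins, fell by 0.35 on the log2 scale (adjusted p = 0.00158), the adenosine receptor Adora1, with 20.1% of its exon bases overlapping Mybph on the other strand, by 0.54 (adjusted p = 0.0164; 0.112 against controls 1 and 2 alone) and the receptor kinase Grk2 by 0.22 (adjusted p = 0.0128; 0.0829 against controls 1 and 2 alone and 0.105 under total count scaling).

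Downstream, 2 of 9 protein kinase A genes were called higher, 3 lower and 4 not called (median -0.02). This count and the next 3 stand beside 14.8% of all tested genes called higher, 13.1% lower and 27.9% in either direction. The regulatory subunits Prkar1a and Prkar2a fell by 0.27 and 0.30 on the log2 scale (edgeR adjusted p = 0.00306 and 0.0039) and the inhibitor Pkig by 0.30 (0.00377), while Pkib, another inhibitor, rose from 0.543 ± 0.0841 to 1.46 ± 0.475 CPM (0.00349; 0.079 for KO 1, 3 and 4 against controls 3 and 4). Of 15 tested anchoring protein genes 5 were called lower, 0 higher and 10 not called by edgeR (median -0.14). Sphkap, which binds the regulatory subunit of type I kinase, fell 4.05-fold from 50.9 ± 4.30 to 12.5 ± 1.93 CPM (adjusted p = 2.39e-07). Akap6 and Akap1 fell by 0.34 and 0.31 (adjusted p = 0.00292 and 0.0013; for Akap6 0.0591 for KO 1, 3 and 4 against controls 3 and 4), and Pde4dip, the PDE4-binding myomegalin, by 0.26 (0.0281), though not when KO 2 or 3 or control 1 or 4 was left out (0.0558 to 0.0922). Of 12 tested genes of other effectors 4 were called higher, 2 lower and 6 not called (median 0.21). The pacemaker channel gene Hcn2 rose 2.10-fold to 15.1 ± 1.42 CPM (adjusted p = 0.000466) and Rapgef3, the exchange factor EPAC1, 1.30-fold (0.00591; 0.0785 against controls 1 and 2 alone). Hcn3, with 17.1% of its exon bases overlapping Pklr on the other strand, averaged 0.477 ± 0.112 CPM in KO against 0.115 ± 0.0612 in control and was called higher (0.00528), and Popdc3, a cyclic AMP-binding membrane protein, was called lower (-0.45, 0.00878; 0.0767 against controls 3 and 4 alone). Of 10 genes of cyclic AMP export and the CREB family 1 was called higher, 1 lower and 8 not called (median -0.01). These were Creb1 (0.17, edgeR adjusted p = 0.0196) and Crtc1 (-0.33, 0.0185), while Atf1 and Ep300 were at 0.11 and -0.12 (0.205 and 0.158). The Creb1 call was lost without KO 3 (0.0602) or control 1 (0.0595). It was also lost against controls 1 and 2 alone (0.129) and controls 3 and 4 alone (0.172), among other alternatives. The Crtc1 call was lost without control 1 (0.0554), against controls 1 and 2 alone (0.0538) and against controls 3 and 4 alone (0.0728), among others.

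**Figure D4:**
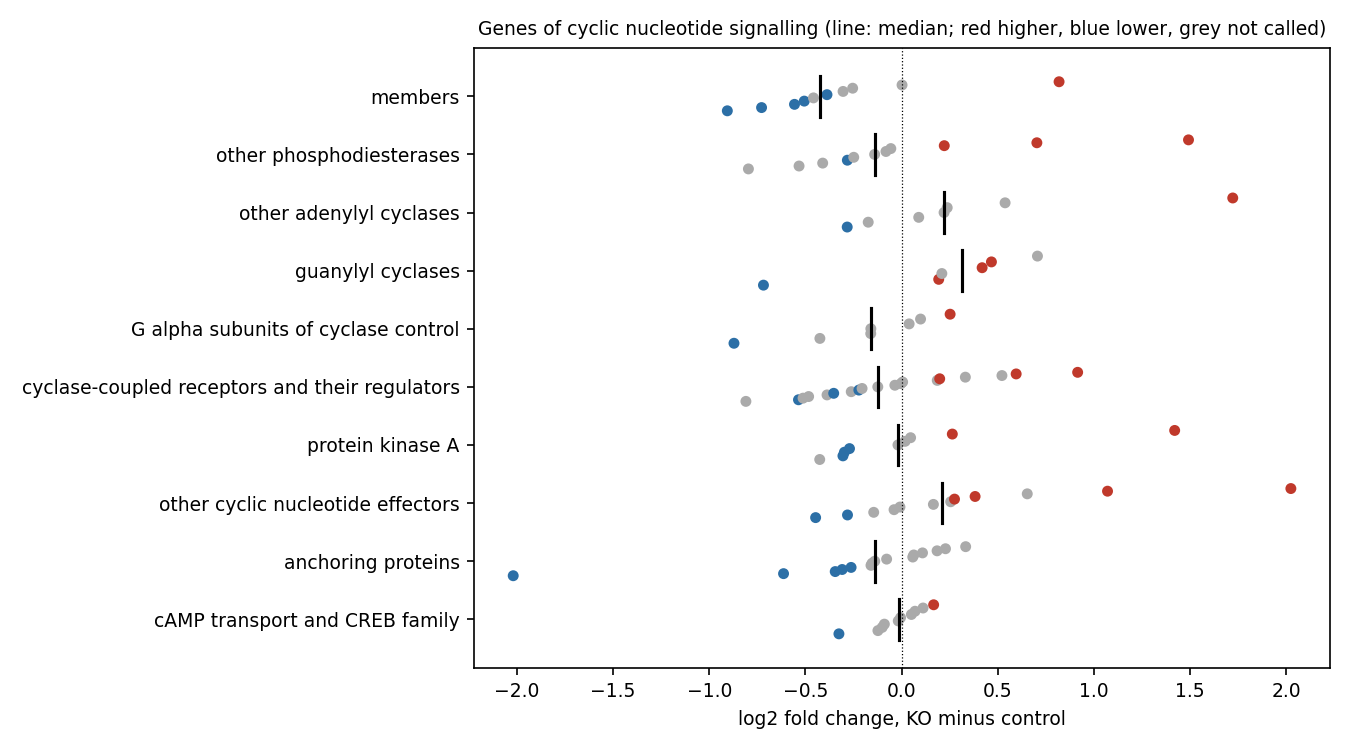
Log2 fold changes, KO minus control, of the 10 genes described (members) and of 9 lists of cyclic nucleotide signalling; each point is a tested gene, the black line the list's median, red is called higher, blue lower and grey not called. The medians run from -0.42 for the 10 genes to 0.31 for the guanylyl cyclases, and Sphkap (-2.02) is the leftmost point among the anchoring proteins.

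The profile over the 8 libraries was compared among 14544 other genes of at least 1 CPM, as the root mean square difference in log2 CPM after centring each gene on its own mean. Nearest to Pde4a were Hspa12a (0.07), Nmrk2 (0.08) and Lamb3 (0.09), and nearest to Pde5a were Prkcd (0.05), Cercam (0.08) and Fgfrl1 (0.09).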

How the data were processed

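Atrial RNA was measured by oligo-dT selected bulk RNA sequencing in 4 KO and 4 control libraries, per the labels' protocols. The deposited table gives unnormalised read counts for each gene, in whole numbers. STAR, DESeq2 and mm10 are listed in the submitters' processing notes, with no version; how reads were counted, and with which strand setting and gene models, is not given in the sources used here. Vector and number in the column names tied columns to samples. Of 54532 gene identifiers, 54495 were in GENCODE M21, which gave coordinates and exon lengths on GRCm38.

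Genes were filtered with filterByExpr (minimum count 10, minimum total 15), scaled by TMM and tested with edgeR 4.0.16 (robust quasi-likelihood test, no covariate, R 4.3.3) over 18033 genes, with Benjamini-Hochberg adjustment and a threshold of 0.05. The SE was taken from the fold change and the F statistic. CPM values are on the TMM scale; a count of 3 in a library was 0.0744 to 0.0885 CPM. Chi-square per degree of freedom between libraries of 1 group was 12.4 to 31.8, above sampling noise, so none was a copy of another. Nothing in the labels states that each library is a separate mouse. The p-values therefore reflect only how far these samples spread, and that spread may be technical.

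The 10 genes, the lists (10 of pathway genes and 8 of markers) and the alternatives were chosen with earlier results of these data known. All 10 genes are named, with up to 4 genes of smallest p per pathway list, some of which are not reported here, and the 3 nearest profiles of the 2 genes with the smallest p. Alternatives were DESeq2 1.42.0, limma-voom (limma 3.58.1), other scalings and filters, covariates and subsets of libraries. The edgeR, limma-voom and DESeq2 steps were run on simulated data, with pass criteria set for edgeR alone. That simulation changed far fewer genes than were called here and used the same dispersion for every gene. Promoter windows came from RefSeq and matched 7 of the 10 genes.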

Additional observations from a re-analysis of the deposited data

How the results depend on the processing

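Under 21 alternatives, 1 of the 10 genes was called higher each time (Pde5a), and 4 to 7 were called lower. Pde2a, Pde3a, Pde4a, Pde5a and Adcy5 kept their calls under all 21, with log2 fold changes of -1.01 to -0.75, -0.61 to -0.43, -0.86 to -0.64, 0.75 to 0.90 and -0.51 to -0.31. Pde4d lost its call in 1, while Pde4b, Adcy6 and Pde3b gained one in 5, 4 and 3. The sign of Pde1c, never called, changed to -0.00634 with RLE scaling, -0.00649 by DESeq2, -0.00601 by limma-voom, -0.0126 with Ddx3y as a covariate, -0.034 against controls 1 and 2 alone and -0.00462 against controls 3 and 4 alone, and ran from -0.0391 to 0.0429 with single libraries left out. Calm2 moved to 0.00227 and Calm3 to 0.00919 under total count scaling, and Calm3 to 0.00896 against controls 1 and 2 alone. Over all genes, 3011 were called (1547 higher, 1464 lower) when only the libraries high in Ddx3y were compared (KO 1, 3 and 4 with controls 3 and 4), an alternative with fewer samples, against 5032 in the full fit. Total count scaling moved the median of all genes to 0.09; it ended the calls of Pde6d, Adcy9, Grk2, Pde4dip and Crtc1 and added, among others, those of Adcy3, Adcy7, Gnai3 and Atf1. Same-numbered libraries deviated together only in part (correlations of -0.06, 0.45, -0.01 and 0.13 for pairs 1 to 4 over 2000 genes). The replicate number as a block gave 4757 calls, with 6 of the 10 genes lower and 1 higher. The 95% intervals are not adjusted for the number of genes tested. Those of Pde3b, Pde4b and Adcy6 left out a log2 fold change of 0, yet none of these genes was called in the full fit. A gene that was not called may still differ by an amount within its interval.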

Other observations

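KO 1, the only library whose name has its prefix, held the lowest KO level of 6 of the 10 genes (Pde2a, Pde3b, Pde4a, Pde4b, Pde4d and Pde5a) and the highest of 3 others (Pde1c, Adcy5 and Adcy6). KO 2 held the lowest level of those same 3 genes. The summed cardiomyocyte markers were 73414 CPM in KO 1 and 58681 CPM in KO 2, the highest and the lowest of the KO libraries.

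Fat cell genes were high in 1 library. In KO 4, Adipoq, Plin1, Cidec and Cfd, all of the adipocyte list and named after their values were seen, were at 15.8, 17.1, 16.5 and 39.3 CPM, while the other 7 libraries held at most 0.766, 1.18, 0.737 and 1.81 CPM. Fabp4, which endothelial cells also express, averaged 159 CPM in KO against 165 in control. It too was highest in KO 4, at 202 CPM, against 121 to 198 CPM in the other 7 libraries. Lep and Retn were at 3.79 and 3.58 CPM in KO 4, and at most 0.147 and 0.383 CPM in the others. Pparg was at 6.53 CPM in KO 4 and at most 4.89 CPM in the others. Lipe, at 33.3 CPM in KO 4, was as high in control 2 (34.4 CPM).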
